A study of Caenorhabditis elegans with 8 samples.

Results

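Cytochromes P450 are haem enzymes that insert oxygen into lipids, hormones and foreign chemicals, and Caenorhabditis elegans carries a large family of them under cyp- gene names. Members were the probe sets of the deposited array table whose platform annotation gives a single gene symbol made of cyp-, a number and a letter. This rule, which uses no measured value, found 78 probe sets for 73 genes among the 22625 probe sets of the table. A further 2 probe sets that list several cyp- genes were left out. RefSeq names 80 cyp- genes and pseudogenes, kept the symbols of all 78 members, and lists 3 of them, cyp-31A1, cyp-34A3 and cyp-29A1, as pseudogenes.

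Total RNA came from whole day 4 adults of 4 strains: N2, the wild type, and mutants carrying daf-16(mu86), ain-1(tm3681) or drsh-1(ok369). All 8 groups were grown at 20 °C on E. coli OP50 and then kept on plates with FUDR, a drug that stops progeny from developing, and days were counted from the move to those plates. From day 2 the fed group of each strain had UV-killed OP50 and the fasting group had no bacteria. drsh-1 encodes Drosha, which releases microRNA precursors from their primary transcripts in the nucleus. ain-1 encodes a GW182 partner of the Argonautes that carry microRNAs, and daf-16 encodes the FOXO factor that insulin signalling holds back. Each group had 1 Affymetrix array, so a value in a group has no replicate error of its own, and precision is limited by how few arrays there are.

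The worm enzymes fall into clans shared with mammals. The CYP2 clan, with families 14, 23 and 33 to 36, holds the enzymes that foreign chemicals most often induce, among them the 35A genes, which also affect fat storage. The CYP3 clan (families 13, 25 and 43) is related to the human CYP3A drug-metabolising enzymes. The CYP4 clan (families 29, 31, 32, 37 and 42) is related to mammalian fatty acid hydroxylases, and its 31A members act in eggshell formation. EMB-8, the P450 reductase, hands electrons to these enzymes. cyp-44A1 is the member of the mitochondrial clan.

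The 8 arrays had median intensities of 35.3 to 37.8, and pairs of arrays correlated between 0.945 and 0.993. The daf-16 fasting array stood apart in its spike-in controls, which were highest on it for 8 of 8 probe sets, with a median of 1.87 times the mean of the other arrays. Counts of members called for fasting, and in drsh-1 or daf-16 against wild type, are given with and without this array or its pair. The 2-fold counts in daf-16, the unadjusted count of the daf-16 response and the calls in lists of other genes are given with it alone. The targeted genes were read next. A drsh-1 probe set gave 182.8 and 185.2 in fed and fasting wild type and 13.96 and 17.11 in the drsh-1 mutant, while the other drsh-1 probe set was 5.78 and 5.19 times as high in the mutant. A daf-16 probe set gave 76.4 and 69.5 in wild type and 9.267 and 8.978 in the daf-16 mutant, whereas the other daf-16 probe sets were at 0.371 to 0.763 of wild type. The ain-1 probe sets were at 0.72 to 0.992 of wild type in the ain-1 mutant, so they do not separate that mutant from wild type.

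Of the 78 probe sets, 48 (for 45 genes) passed the filter on low values, which left out the dimmest 30% of all probe sets by mean log2 value, those below an intensity of about 15.71. The last member below the limit was cyp-35A5, with a mean of 15.7, and the first above it was cyp-25A6, with 15.9. Between the lowest and highest array, the 30 dim members stayed at or below 34.9. That highest value was cyp-35B1, a gene known as dod-13 and raised when DAF-16 is active, which read 34.9 in fasting and 12.5 in fed wild type, 26.9 in fasting and 14.2 in fed ain-1, and 7.9 to 11.5 on the drsh-1 and daf-16 arrays. The CYP2 clan had 22 of 46 probe sets past the filter, the CYP3 clan 12 of 16, the CYP4 clan 13 of 15 and the mitochondrial clan 1 of 1. No 23A, 33B or 35B probe set passed, and of the 35A subfamily 1 of 5 did, cyp-35A2. Among the probe sets of highest mean, cyp-14A5 ranged from 285.6 to 1761 over the arrays, cyp-31A2 from 337.6 to 695.6, cyp-31A5 from 304.3 to 615, cyp-33C8 from 68.7 to 766.7, cyp-31A3 from 201.4 to 361.1 and cyp-44A1 from 171.4 to 298.3. These ranges belong to each probe set and set no gene above another.

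Fasting lowered cyp-14A5, cyp-35C1 and cyp-13A2 over the 4 strains, and raised no cytochrome P450 past the threshold. The test was limma's additive model of strain and food over the 8 arrays, on log2(intensity + 16), with a Benjamini-Hochberg adjusted p under 0.05 over 15783 probe sets. It called 0 of 48 members higher, where 0.431% of all probe sets were higher, and 4 of 48 lower, where 2.88% were lower. The median difference was 0.00 over the members and 0.01 over all probe sets, on the log2 scale. The call count was 0 when the wild-type, the ain-1 or the daf-16 pair was left out, 0 without the daf-16 fasting array, and 17 when the drsh-1 pair was left out. Members called in that fit over 3 strains are given below with their adjusted p over 4. In whole animals, fewer cells of a type and less RNA per cell cannot be told apart.

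cyp-14A5, a member of the CYP2 clan, had the steepest fall of the 4. On the fed arrays it read 1761 in wild type, 809.9 in drsh-1, 1601 in ain-1 and 1191 in daf-16. On the fasting arrays it read 410.6, 605.4, 285.6 and 380.7 in the same order. Every fed value lay above every fasting value, and the drsh-1 pair was the closest. The fall was 3.08-fold over the 4 strains (log2 −1.62 ± 0.31 SE, adjusted p = 0.0438) and 4.08-fold over the 3 strains other than drsh-1 (log2 −2.03 ± 0.17, adjusted p = 0.00133).

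cyp-35C1, a CYP2 clan enzyme known as a gene induced by foreign chemicals, was called on both of its probe sets. On the brighter set the fed values were 92.7 in wild type, 25.8 in drsh-1, 87.3 in ain-1 and 72.5 in daf-16, and the fasting values were 24.5, 16.2, 17.3 and 17.4. The fed drsh-1 array stood near the fasting arrays of the other strains. The fall was 2.31-fold over the 4 strains (log2 −1.21 ± 0.20, adjusted p = 0.0287). The dimmer set went from 31.1 to 11.1 in wild type, 11.3 to 8.8 in drsh-1, 32.3 to 10.9 in ain-1 and 22.4 to 8.8 in daf-16 (log2 −0.60 ± 0.12, adjusted p = 0.0463), and the log2 values of the sets correlated at 0.983 over the 8 arrays.

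In the CYP3 clan, cyp-13A2 went, fed to fasting, from 35.5 to 14.6 in wild type, 26.7 to 21.3 in drsh-1, 30.7 to 14.5 in ain-1 and 29.5 to 17.3 in daf-16. All fed values were above all fasting values (log2 −0.50 ± 0.10, adjusted p = 0.0436). These values lie near the filter, and the scale understates the change of dim probe sets. cyp-13A5 went, fed to fasting, from 298.4 to 110.5 in wild type, 558.9 to 104.2 in drsh-1, 217.2 to 116.5 in ain-1 and 159.3 to 93.8 in daf-16. Its fasting values lay in a narrow range below every fed value, and the fed values spread from 159.3 to 558.9 with drsh-1 highest. The test missed the threshold over 4 strains (log2 −1.27 ± 0.26, adjusted p = 0.055) and passed over the 3 without drsh-1 (log2 −0.94 ± 0.16, adjusted p = 0.0124).

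**Figure D1:**
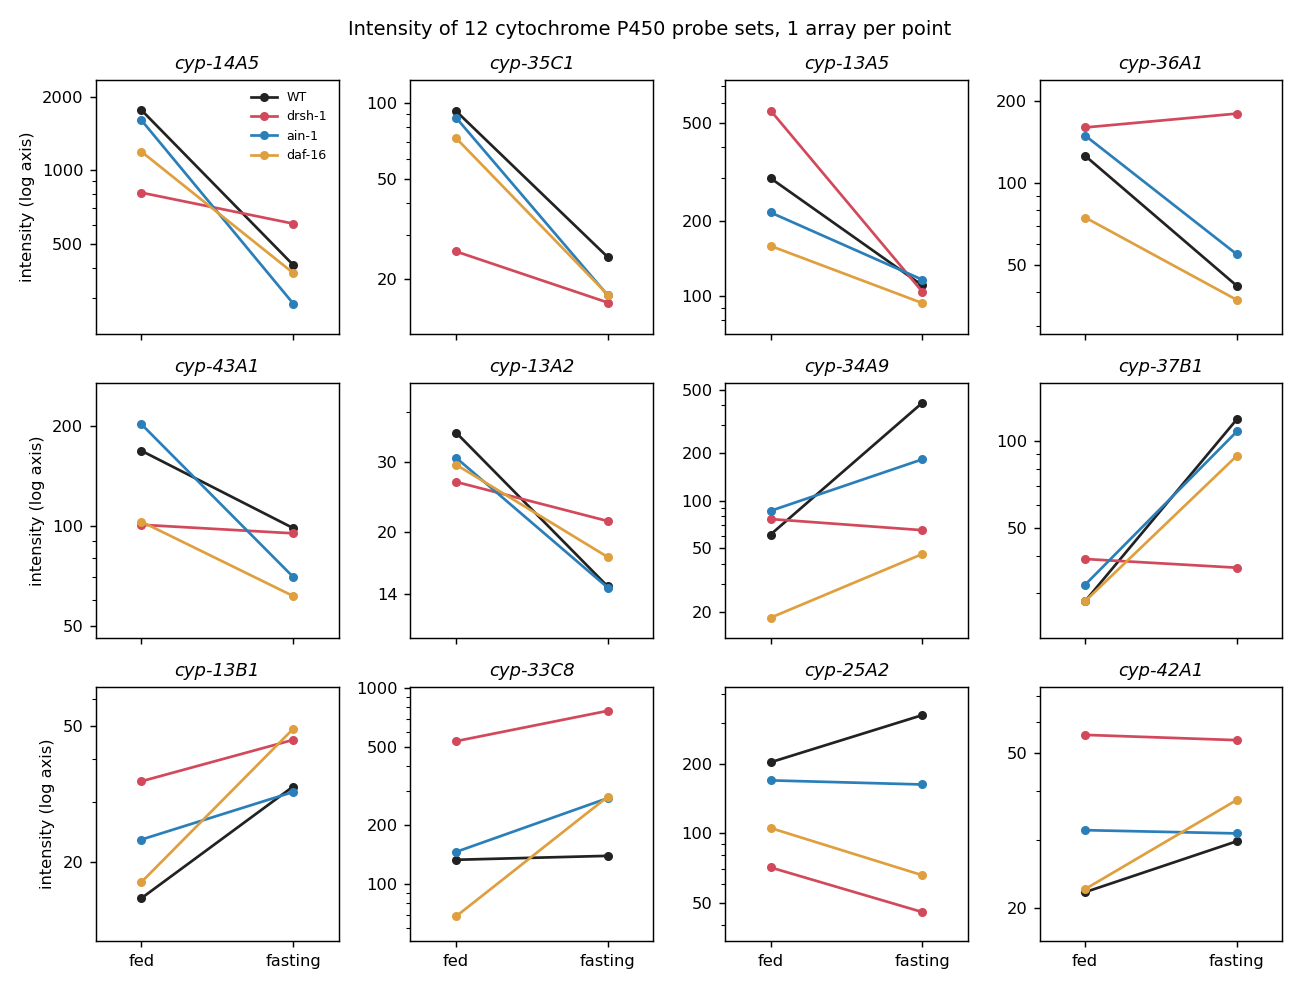
Intensity (log axis) of 12 cytochrome P450 probe sets on the fed and fasting array of each strain; each point is 1 array and each line joins a strain's pair. cyp-14A5, cyp-35C1, cyp-13A5 and cyp-13A2 slope down in every strain, while cyp-34A9 and cyp-37B1 slope up in wild type, ain-1 and daf-16 but not in drsh-1.

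Over wild type, ain-1 and daf-16, fasting changed 17 of the 48 members, of which 11 fell and 6 rose. This is 35.4% of the members, beside 15% of all probe sets called higher and 8.97% called lower in the same fit. The median was 0.00 over members and over all probe sets. With the daf-16 pair left out as well, all 17 were called again among 23 members. With the wild-type pair left out 14 of the 17 were, and with the ain-1 pair left out 11 were, cyp-31A2, cyp-33C9, cyp-43A1, cyp-37A1, cyp-44A1 and cyp-14A3 being lost. The members that fell were cyp-14A5, cyp-35C1 on both sets, cyp-36A1 and cyp-33C9 of the CYP2 clan, cyp-13A2, cyp-13A5 and cyp-43A1 of the CYP3 clan, cyp-31A2 and cyp-37A1 of the CYP4 clan, and the mitochondrial cyp-44A1. The members that rose were cyp-14A3 and cyp-34A9 of the CYP2 clan, cyp-13B1 on both sets and cyp-13B2 of the CYP3 clan, and cyp-37B1 of the CYP4 clan.

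cyp-36A1, which acts in oxygen and sulphide signalling downstream of EGL-9 and HIF-1, went, fed to fasting, from 125.9 to 42.1 in wild type, 149.3 to 54.9 in ain-1 and 74.9 to 37.4 in daf-16. In drsh-1 it read 159.9 fed and 179.7 fasting. The 3 other strains gave a fall of 2.13-fold (log2 −1.09 ± 0.14, adjusted p = 0.00536), and with drsh-1 included the value was log2 −0.78 ± 0.25 (adjusted p = 0.10). The fasting drsh-1 array was the highest of the 8, above each fed array.

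cyp-43A1 went, fed to fasting, from 168.4 to 98.5 in wild type, 202.4 to 70.2 in ain-1 and 103 to 61.5 in daf-16, against 100.8 to 95 in drsh-1 (log2 −0.88 ± 0.18 over the 3 strains, adjusted p = 0.0188, and 0.0919 over 4 strains). cyp-37A1 read 200.6 and 134.2, 146.4 and 88, and 151.7 and 96.4 in the same 3 strains, and 117.3 and 118 in drsh-1 (log2 −0.58 ± 0.12 over the 3 strains, adjusted p = 0.0208, and 0.111 over 4). The drsh-1 arrays of both genes thus lay together, inside the range that the other strains spanned. cyp-44A1 was lower 1.49-fold over the 3 strains (adjusted p = 0.0249, and 0.109 over 4) and read 189.1 and 185.9 in drsh-1, and cyp-33C9 fell by 0.28 on the log2 scale (adjusted p = 0.0304, and 0.102 over 4).

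The eggshell gene cyp-31A2 went, fed to fasting, from 576.1 to 448.4 in wild type, 567.8 to 528.7 in drsh-1, 619.1 to 473.7 in ain-1 and 695.6 to 337.6 in daf-16. Its fall over the 3 strains was at the edge of the threshold (log2 −0.58 ± 0.16, adjusted p = 0.0499, and 0.117 over 4). The daf-16 pair was the widest, and this was also so for cyp-31A5, which read 615 and 304.3 in daf-16 and 462.9 and 405.2 in wild type, and for cyp-31A3, with 361.1 and 244.9 in daf-16 and 258.6 and 241.9 in wild type. The remaining probe set of this subfamily, cyp-31A1, did not follow, with 75.7 and 75.8 in daf-16 and 67.6 and 64.3 in wild type. The probe sets of this subfamily can share signal between near-identical genes. Of 4 oocyte and embryo markers, 3 were called lower over the same 3 strains, and their median difference was log2 −0.21 in wild type and −0.77 in daf-16. The yolk receptor rme-2 read 3219 and 1265 in fed and fasting daf-16, against 2855 and 2299 in wild type. The part of oocyte content in the cyp-31A values was not tested.

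cyp-34A9, also named dod-16, was the member with the widest range, 22.7-fold between its lowest and highest array. It went, fed to fasting, from 61.2 to 414.3 in wild type, 86.3 to 182.3 in ain-1 and 18.3 to 46.1 in daf-16, against 76.6 to 65.2 in drsh-1. Fasting daf-16 thus remained below every fed array of the other strains. The rise over the 3 strains was 2.70-fold (log2 1.43 ± 0.32, adjusted p = 0.026), and with drsh-1 it was log2 1.03 ± 0.38 (adjusted p = 0.133). cyp-37B1, of the clan of fatty acid hydroxylases, went, fed to fasting, from 28.1 to 118.4 in wild type, 32 to 107.5 in ain-1 and 28.1 to 88.7 in daf-16, against 39.2 to 36.6 in drsh-1. Its rise over the 3 strains was 2.65-fold (log2 1.41 ± 0.12, adjusted p = 0.00136), with no overlap between their fed and fasting values. With drsh-1 it was log2 1.04 ± 0.27 (adjusted p = 0.075).

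The 13B genes were dim and rose over the 3 strains. The brighter cyp-13B1 set went, fed to fasting, from 15.7 to 33.3 in wild type, 23.3 to 32.1 in ain-1 and 17.5 to 49.1 in daf-16 (log2 0.63 ± 0.13 over the 3 strains, adjusted p = 0.0195, and 0.0641 over 4). In drsh-1 it read 34.5 fed and 45.6 fasting, so that the fed drsh-1 array lay above the fed arrays of the other strains. The other cyp-13B1 set rose by log2 0.51 ± 0.07 over the 3 strains (adjusted p = 0.00636, and 0.121 over 4). cyp-13B2 went, fed to fasting, from 21.8 to 35.2 in wild type, 20.4 to 35.6 in ain-1 and 22.4 to 41.9 in daf-16, and 22.5 to 19.2 in drsh-1 (log2 0.51 ± 0.07 over the 3 strains, adjusted p = 0.00621, and 0.118 over 4). cyp-14A3 rose by log2 0.25 ± 0.06 (adjusted p = 0.0323, and 0.127 over 4).

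Within single strains, a difference of 2-fold on the log2(intensity + 16) scale was counted with no test. In wild type cyp-34A9 and cyp-37B1 were higher in fasting, 2 of 48 against 2.58% of all probe sets, and cyp-13A5, cyp-14A5, cyp-35C1 and cyp-36A1 were lower, 4 of 48 against 3.36%. In drsh-1 no member was higher, against 0.0317% of all probe sets, and cyp-13A5 was lower, 1 of 48 against 1.04%. In ain-1 cyp-37B1 was higher, against 2.72%, and cyp-14A5, cyp-35C1, cyp-36A1 and cyp-43A1 were lower, against 3.49%. In daf-16 cyp-33C8 and cyp-37B1 were higher, against 7.17%, and cyp-14A5, cyp-31A2 and cyp-35C1 were lower, against 5.01%. In all, 9 of 48 members (18.8%) differed 2-fold in 1 or more of the 4 pairs, beside 14.5% of all probe sets, so most of the family differed by less than this in each strain.

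**Figure D2:**
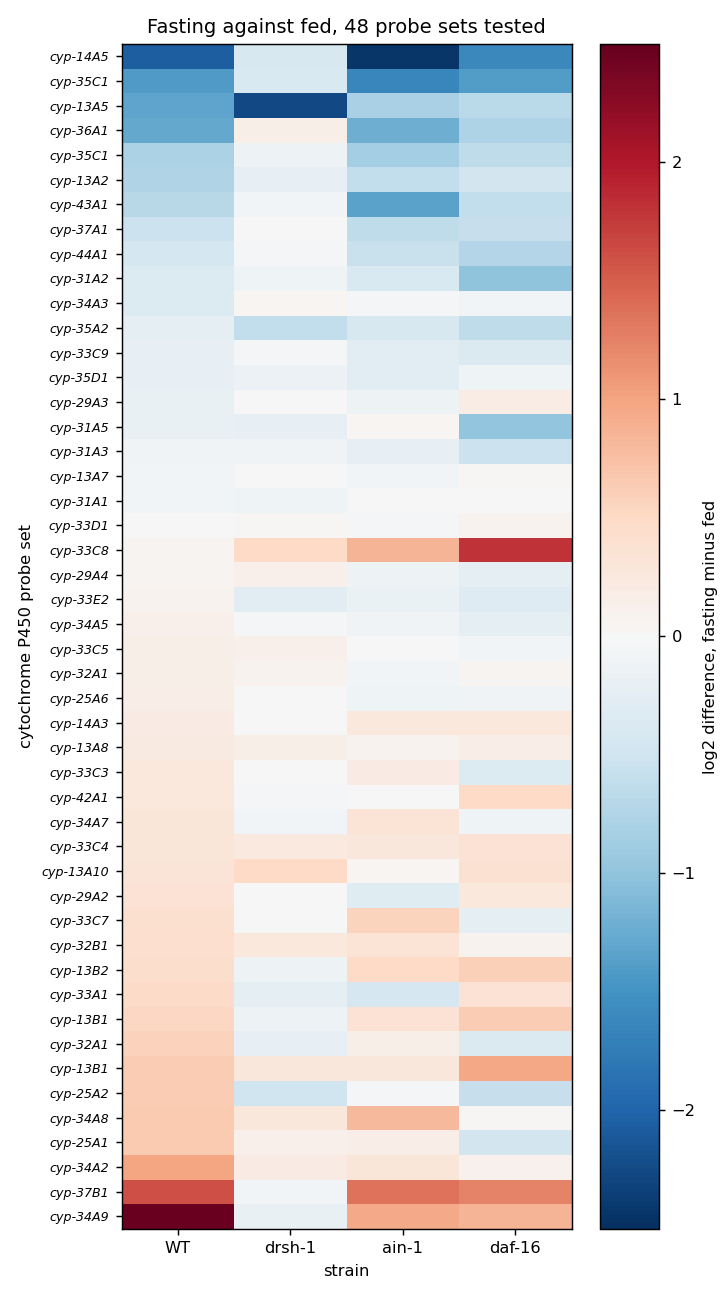
Log2 difference between the fasting and the fed array of each strain for the 48 cytochrome P450 probe sets past the filter, ordered by wild type; each cell is 1 array against 1 array, and red is higher in fasting. In the drsh-1 column cyp-13A5 (−2.26) stands out, and cyp-14A5 and cyp-37B1 are pale (−0.41 and −0.07). The wild-type, ain-1 and daf-16 columns share the blue top (cyp-14A5, −2.06, −2.42 and −1.61). They also share the red bottom, with cyp-34A9 last (2.48, 0.96 and 0.86) and cyp-37B1 above it (1.61, 1.36 and 1.25).

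The fasting differences of the 48 members correlated with those of wild type at 0.871 in ain-1 (Spearman 0.803), 0.695 in daf-16 (0.673) and 0.346 in drsh-1 (0.289). Over all 15783 probe sets the values were 0.887 in ain-1 (Spearman 0.804), 0.777 in daf-16 (0.669) and 0.534 in drsh-1 (0.171), so for drsh-1 the members were below all probe sets by Pearson's measure and above them by Spearman's. These are descriptions across probe sets of the same arrays, which are not independent. The 17 members called without drsh-1 allow the 2 drsh-1 arrays to be placed on the scale from the mean fed (0) to the mean fasting (1) value of the other 3 strains. For the 11 that fell, the median place was 0.6 for fed and 0.74 for fasting drsh-1, beside 0.593 and 0.884 over the 1415 probe sets that fell. For the 6 that rose it was 0.611 and 0.588, beside 0.497 and 0.548 over the 2361 that rose. Single members differed widely. The brighter cyp-35C1 set was at 0.845 when fed, cyp-37B1 at 0.202 fed and 0.151 fasting, and cyp-36A1 at −0.413 and −0.553, that is beyond the fed mean on the side away from fasting.

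**Figure D3:**
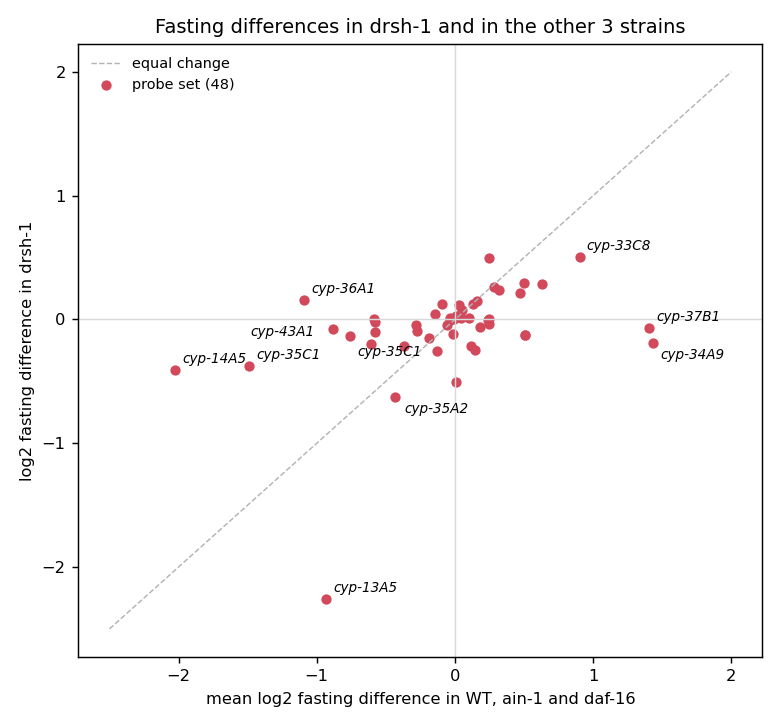
Log2 fasting difference in drsh-1 against the mean log2 fasting difference of wild type, ain-1 and daf-16 for the 48 probe sets tested, with the dashed line of equal change. Most points lie near the horizontal line of no difference in drsh-1, with cyp-37B1 and cyp-34A9 far to the right and cyp-14A5 far to the left, and cyp-13A5 lies at −2.26, below the dashed line.

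A test of each strain's fasting difference against that of the other 3 strains, with 2 residual degrees of freedom, called no member. For drsh-1 the adjusted count was 0 of 48, against 0.0% of all probe sets, and an unadjusted p under 0.05 was reached by 10 of 48, against 13.6%. These were cyp-13A2, cyp-14A5, cyp-35C1 on both sets and cyp-36A1, whose difference was more positive in drsh-1, and cyp-13A5, a cyp-13B1 set, cyp-13B2, cyp-34A9 and cyp-37B1, whose difference was more negative. The drsh-1 difference of cyp-37B1 was 1.48 log2 units below that of the other strains, with an adjusted p of 0.15 in limma, and that of cyp-14A5 was 1.62 above, with an adjusted p of 0.199. For ain-1 the adjusted count was 0, against 0.0%, and the unadjusted count was 0, against 1.09%. For daf-16 the adjusted count was 0, against 0.0%, and the unadjusted count was 5 of 48, against 14.5%, with cyp-33C8 and a cyp-13B1 set more positive and cyp-25A1, cyp-31A2 and cyp-31A5 more negative.

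In drsh-1 against wild type, with both foods in the fit, cyp-33C8, cyp-42A1 and cyp-13A10 were higher and cyp-25A1 and cyp-25A2 lower. This was 3 of 48 higher, against 7.98% of all probe sets, and 2 of 48 lower, against 3.74%, so the shares are near the background. The median difference was −0.09 over members and 0.00 over all. Without the ain-1 pair 3 members were called, cyp-13A10 and cyp-25A1 being lost, and cyp-13A10 was also lost without the daf-16 pair or its fasting array. Without the daf-16 pair 5 were called, with cyp-35A2 gained, and without the daf-16 fasting array 6 were, with cyp-35A2 and a cyp-13B1 set gained.

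cyp-33C8, of the largest CYP2 clan subfamily on the array, read 537 and 766.7 in fed and fasting drsh-1, against 133.5 and 139.8 in wild type. It went, fed to fasting, from 146.4 to 275.2 in ain-1 and 68.7 to 279.8 in daf-16. Both drsh-1 arrays lay above the other 6 arrays, and the difference from wild type was 4.31-fold (log2 2.11 ± 0.38, adjusted p = 0.0184). The other 33C probe sets past the filter were not called. The range of cyp-33C8 was 11.2-fold, and no other 33C probe set that was tested had a range over 2.68-fold.

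cyp-42A1, of the CYP4 clan, went, fed to fasting, from 55.6 to 53.9 in drsh-1, 22 to 29.7 in wild type, 31.7 to 31.1 in ain-1 and 22.4 to 37.9 in daf-16 (log2 0.76 ± 0.15, adjusted p = 0.0244). Both drsh-1 values again lay above the other 6. Its other probe set was below the filter and was also highest in drsh-1, with 12.8 and 14 against 6.9 to 10.3. cyp-13A10, of the CYP3 clan, read 36.1 and 57.5 in drsh-1 and 22.5 and 32.2 in wild type (log2 0.52 ± 0.13, adjusted p = 0.0438). This call near the threshold was kept in 4 of 12 alternative settings.

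cyp-25A1 and cyp-25A2 of the CYP3 clan, neighbours in the genome, were both lower in drsh-1. cyp-25A2 read 71 and 45.5 in fed and fasting drsh-1 and 202.7 and 324.4 in wild type, a difference of 3.73-fold (log2 −1.90 ± 0.30, adjusted p = 0.0126). cyp-25A1 read 18 and 21.1 in drsh-1 and 46.8 and 83.3 in wild type (log2 −1.15 ± 0.24, adjusted p = 0.0264). In daf-16, cyp-25A2 went from 105.2 fed to 65.7 fasting and cyp-25A1 from 34.7 to 21.1, so the fasting daf-16 array overlapped the drsh-1 arrays. ain-1 was also below wild type at each food, with 169.2 fed and 162.4 fasting for cyp-25A2 and 36.2 and 42.8 for cyp-25A1. For both genes the fasting wild-type array was the highest of all. cyp-25A6, near the filter, read 16.4 on both drsh-1 arrays and 15 and 18.8 in wild type.

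At a single food, the drsh-1 arrays differed 2-fold from wild type in 4 of 48 members when fed, against 7.95% of all probe sets, and in 6 of 48 when fasting, against 7.58%. Fed drsh-1 was higher in cyp-33C8 and lower in cyp-14A5, cyp-25A2 and cyp-35C1. Fasting drsh-1 was higher in cyp-33C8 and cyp-36A1 and lower in cyp-25A1, cyp-25A2, cyp-34A9 and cyp-37B1.

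**Figure D4:**
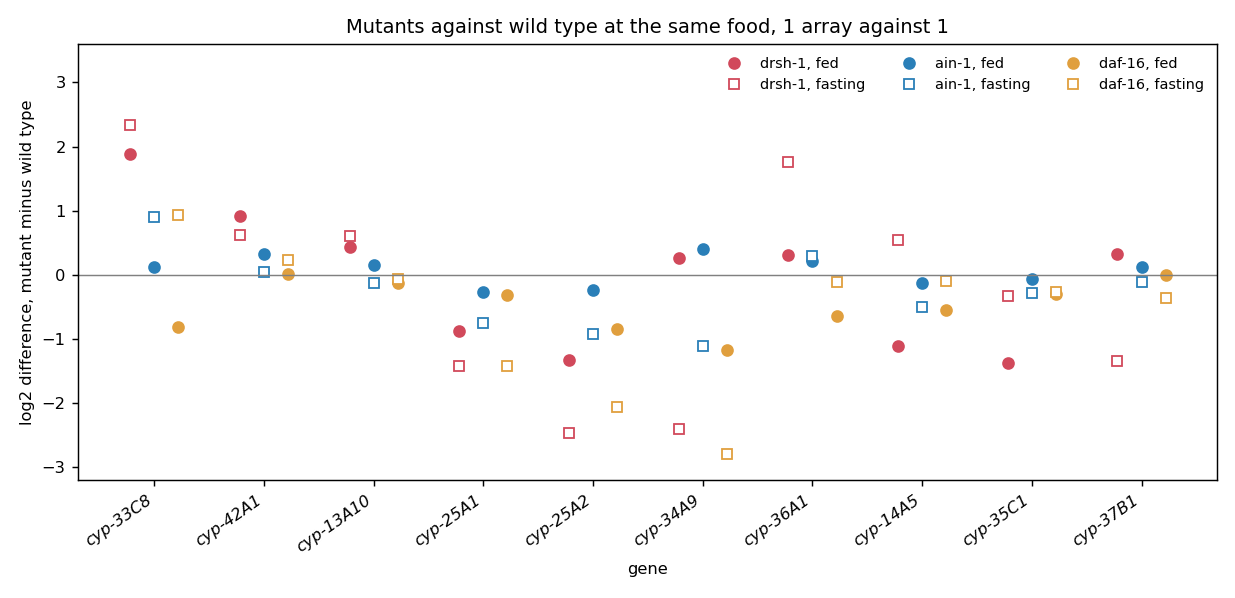
Log2 difference of each mutant from wild type at the same food for 10 genes, 1 array against 1 array; filled circles are fed and open squares fasting. cyp-33C8 lies at 1.89 and 2.33 in drsh-1, cyp-25A2 lies below 0 in each mutant at both foods, and cyp-34A9 lies at −2.41 in fasting drsh-1 and −2.79 in fasting daf-16.

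In daf-16 against wild type, no member was called, and no probe set of the whole array was (0.0%). An unadjusted p under 0.05 was reached by 8 of 48 members, all lower in daf-16, against 8.78% of all probe sets in either direction. They were cyp-25A1, cyp-25A2, cyp-25A6, cyp-29A2, cyp-34A2, cyp-34A5, cyp-34A8 and cyp-34A9, and without the daf-16 fasting array there were 4. The adjusted p in limma was 0.245 for cyp-25A2 (log2 −1.46 ± 0.30) and 0.401 for cyp-34A9 (log2 −1.98 ± 0.54). The median over members was −0.16, against 0.04 over all probe sets. At a single food, cyp-34A9 was 2-fold lower when fed, 1 of 48 against 1.18%, and cyp-25A1, cyp-25A2 and cyp-34A9 when fasting, 3 of 48 against 3.28%.

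Among the other 34A genes, cyp-34A8 read 79.2 and 80.7 in fed and fasting daf-16 and 106.3 and 176.1 in wild type. It read 188.6 and 234.4 in drsh-1 and 130 and 240.7 in ain-1, so that the daf-16 arrays were the lowest. cyp-34A2 went, fed to fasting, from 16 to 18.5 in daf-16, 18.2 to 52.1 in wild type, 48.4 to 58.7 in drsh-1 and 19.4 to 27.6 in ain-1. cyp-29A2, of the CYP4 clan, read 80.5 and 99.7 in daf-16 and 131.7 and 172.4 in wild type. None of these passed the adjusted threshold in the fits for fasting over 4 or 3 strains or for a mutant against wild type, while with array weights cyp-34A2 and cyp-34A8 were among the members called for fasting over 4 strains. With a pair left out of the 3 strains as well, cyp-34A2 was called without ain-1 or without daf-16, and cyp-34A8 without daf-16.

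In ain-1 against wild type, no member was called, against 0.0507% of all probe sets. An unadjusted p under 0.05 was reached by 1 of 48, cyp-29A4, against 5.85%. At a single food no member differed 2-fold when fed, against 0.995%, and cyp-34A9 was lower when fasting, 1 of 48 against 1.09%, with 182.3 in ain-1 and 414.3 in wild type.

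The xenobiotic-inducible cyp-35A2 went, fed to fasting, from 166.4 to 138.2 in wild type, 113.8 to 68.2 in drsh-1, 208.2 to 153 in ain-1 and 166.3 to 100.7 in daf-16. Each fasting value was below the fed value of its strain, and the fasting groups overlapped the fed ones. Its fasting difference was log2 −0.48 ± 0.13 (adjusted p = 0.0766), and its difference in drsh-1 was log2 −0.68 ± 0.18 (adjusted p = 0.0534), neither past the threshold. The drsh-1 difference did pass it without the daf-16 pair or its fasting array, with quantile normalization and with a pseudocount of 1.

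By family, the median fasting difference of the members past the filter was log2 −0.93 in wild type, −1.08 in ain-1 and −0.67 in daf-16 for the 2 of family 14, and −0.52, −0.62 and −0.64 for the 4 of family 35. Family 34, with 6, had 0.48, 0.32 and −0.02, and family 33, with 9, had 0.14, 0.01 and −0.06. The corresponding drsh-1 medians were −0.20, −0.26, 0.00 and 0.01. The 2 of family 14 moved in opposite directions, so their median describes neither. cyp-14A5 fell, while cyp-14A3 had 0.204 in wild type, 0.268 in ain-1 and 0.265 in daf-16. Of the 4 of family 35, 2 are the probe sets of cyp-35C1. The others, cyp-35A2 and cyp-35D1, had −0.242 and −0.204 in wild type. The CYP2, CYP3 and CYP4 clans had medians between −0.10 and 0.28 in every strain.

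By the order of protein-coding genes and pseudogenes in RefSeq, 51 cyp- genes form 13 runs of neighbours. Within a run, each cyp- gene is at most 10 places after the one before it. In the run of 9 genes of subfamily 13A, 4 probe sets passed the filter and cyp-13A5 alone differed 2-fold in a fasting pair. In the run of 10 genes from cyp-35A5 to cyp-34A10, 4 of 10 probe sets passed. Of these, cyp-34A9 alone differed 2-fold in a fasting pair on the log2(intensity + 16) scale. Its neighbours cyp-34A7 and cyp-34A8 ranged from 15.1 to 23.8 and from 79.2 to 240.7 over the arrays. cyp-35B1, in the same run but below the filter, read 12.5 and 34.9 in fed and fasting wild type and 14.2 and 26.9 in ain-1. On the drsh-1 and daf-16 arrays it read 7.9 to 11.5.

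The genes most like cyp-34A9 over the 8 arrays, among 4300 tested probe sets with a range of at least 2-fold, were nnt-1 (r = 0.994), stdh-1 (0.969), dod-3 (0.959), epi-1 (0.956) and fmo-1 (0.953). dod-3 read 233.3 and 1179 in fed and fasting wild type and 42.68 and 98 in daf-16. Those most like cyp-14A5 were cah-3 (0.991), acs-1 (0.987), kola-3 (0.987), nspg-8 (0.985) and dgat-2 (0.981). acs-1, a fatty acid CoA ligase, read 834.9 and 122.6 in wild type and 326 and 199 in drsh-1. These are descriptions, picked as the highest of many over 8 points.

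The genes that serve P450 enzymes were read from lists, with values for some members of highest mean and for those called in the fits named. Over all probe sets, 15% were higher and 8.97% lower in the 3-strain fit, 0.431% and 2.88% over 4 strains, and 7.98% and 3.74% in drsh-1, and the counts below are to be read beside these. The reductase emb-8 did not pass the test over 4 strains (log2 −0.23 ± 0.12, adjusted p = 0.241) and read 353.9 to 521 over the arrays. The cytochrome b5 genes cytb-5.1 and cytb-5.2 were not called over 4 strains and rose over the 3 without drsh-1, by log2 0.98 ± 0.18 (adjusted p = 0.0131) and 0.73 ± 0.11 (adjusted p = 0.00683). cytb-5.1 read 434.7 and 854.9 in fed and fasting wild type, and 453.3 and 367.6 in drsh-1.

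daf-9, a cytochrome P450 without a cyp- name that makes the dafachronic acid hormones, read 33.14 to 40.13 on the 8 arrays and was not called for fasting over 4 or 3 strains or in a mutant against wild type. Of the 7 hormone genes tested, 2 were higher in drsh-1, the receptor daf-12 (log2 1.17 ± 0.16, adjusted p = 0.00841) and the steroid dehydrogenase dhs-16 (log2 0.49 ± 0.07, adjusted p = 0.0098). daf-36, which acts early in the same synthesis, fell over the 3 strains without drsh-1 (log2 −0.83 ± 0.11, adjusted p = 0.00566), reading 24.2 fed and 11.06 fasting in wild type and 10.33 to 10.07 in drsh-1.

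The epoxide hydrolases, which convert the epoxides some P450 enzymes make from fatty acids, were called in opposite directions over the 3 strains, ceeh-1 lower (log2 −0.73 ± 0.12, adjusted p = 0.0108) and ceeh-2 higher (log2 0.49 ± 0.12, adjusted p = 0.035). Of 5 flavin monooxygenases, 2 rose in that fit, fmo-1 (log2 1.15) and fmo-5 (0.50), and 1 fell, fmo-3 (−1.07). fmo-2 read 556.9 on the daf-16 fasting array and 17.32 to 32.27 on the other 7, and was not called. Of 17 regulators tested, none was called over 4 strains. Over the 3, 4 rose, nhr-10 (log2 0.87), pmk-1 (0.65), skn-1 (0.52) and aha-1 (0.44), and 2 fell, nhr-80 and atfs-1 (−0.50 each). Of these, skn-1 and aha-1 were at the edge of the threshold (adjusted p = 0.0493 and 0.049 in limma). In drsh-1 1 was higher, atfs-1 (log2 1.46 ± 0.19, adjusted p = 0.00705), and 1 lower, nhr-68 (log2 −0.92 ± 0.21, adjusted p = 0.0403). Among genes of the conjugation step, 0 of 48 ugt- genes rose and 9 fell over 4 strains, and 1 of 28 gst- genes rose and 4 fell. In drsh-1 5 ugt- genes were higher and 10 lower, and 1 gst- gene was higher and 5 lower.

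Many P450 genes are used in the intestine, and 3 of 4 intestine markers fell over the 4 strains (median log2 −1.11). These were act-5 (−1.56), ifb-2 (−1.66) and ges-1 (−0.67), while the gut transcription factor elt-2 had −0.34 (adjusted p = 0.105). In drsh-1, ges-1 was lower (log2 −1.38 ± 0.18, adjusted p = 0.00629), with 50.28 and 36.46 against 182.5 and 103.3 in wild type, and the other 3 intestine markers were not called. Of 3 muscle markers, 2 fell over the 4 strains, and of 3 hypodermis markers 1 fell. In drsh-1 the muscle markers moved both ways, with unc-27 lower (log2 −1.10 ± 0.26, adjusted p = 0.0419) and myo-3 higher (log2 0.85 ± 0.17, adjusted p = 0.0258), and the hypodermal collagen col-19 was lower (log2 −2.24 ± 0.19, adjusted p = 0.00208). No neuron, sperm, germline or oocyte marker was called over the 4 strains, with medians of −0.04, −0.47, −0.16 and −0.42. The part of tissue content in the P450 differences was not tested.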

How the data were processed

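Array intensity was deposited by the authors on a linear scale, as 1 table for 8 arrays, with 0 columns of other series. Per the labels' protocols, Trizol RNA was labelled by 3′ in vitro transcription. The sources used here do not give how intensities were summarised and normalized, and they were used as deposited. Values were taken as log2(intensity + 16), which understates changes of dim probe sets, without the 77 control probe sets and the dimmest 30%. limma 3.58.1 in R 4.3.3 fitted strain plus food with a mean-variance trend and 3 residual degrees of freedom. Its p-values measure the spread of the 8 arrays around that model, which holds strain differences in response and may be technical. The median residual SD was 0.147 log2 units. The steps were also run on simulated data that held no differences in fasting response between strains, so that run does not cover such differences.

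The members, lists and the fit without drsh-1 were chosen with earlier results of these data known. Named were all called members, those 2-fold changed between 2 arrays, the 6 of highest mean, up to 3 members of each list, and 5 genes of like pattern for each of 2 leading members. Called list genes, and others given as examples, were chosen after their values were seen. Alternatives were other filters (none, 50%), quantile or median scaling, pseudocounts of 1 and 64, no trend, array weights, no strain block, left-out strain pairs and other thresholds. Leaving out the daf-16 fasting array, leaving out a pair besides drsh-1 and testing the wild-type response were added after seeing the data. Gene names came from the platform annotation and RefSeq (WBcel235), used for names and neighbours alone. Near-identical genes can add to each other's probe sets.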

Additional observations from a re-analysis of the deposited data

Results flagged for a closer look

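cyp-25A2 differed in the direction of its fasting difference between strains, with a log2 difference of 0.638 in wild type and of −0.502 in drsh-1 and −0.569 in daf-16, each from 1 array against 1. Opposed differences of at least 0.5 in both directions were found in 1 of 48 members (2.08%) and in 50 of all probe sets tested (0.317%). The difference between wild type and these mutants was not tested in itself. In the test of the wild-type response against the other 3 strains, cyp-25A2 was among 4 members with an unadjusted p under 0.05, and 0 passed the adjusted threshold in limma.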

How the results depend on the processing

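The 4 calls for fasting over the 4 strains became 2 with a 50% filter, 1 with a pseudocount of 64, 0 without a mean-variance trend, 2 without the strain block, 0 and 12 at an adjusted p under 0.01 and 0.10, and 0 without the daf-16 fasting array, a choice made after seeing the data. Array weights gave 27, and leaving out a strain pair gave 0 to 17; the cause was not tested. The 17 calls over 3 strains lay between 14 and 23 with a further pair left out. The 5 calls for drsh-1 became 3 with a 50% filter and 0 at an adjusted p under 0.01, lay between 3 and 5 when the ain-1 or the daf-16 pair was left out, and were 6 without the daf-16 fasting array. The 9 members with a 2-fold difference became 15 with a pseudocount of 1 and 4 with one of 64, which widens or narrows the difference of dim probe sets. The counts of 0 for ain-1, daf-16 and the strain responses were 0 in each alternative run. For single members, 250 values kept their direction and side of the threshold, 33 came to pass it and 43 no longer did, with none reversed. The 250 pool called members with uncalled ones that stayed uncalled, and all 43 losses are from called members. The fasting calls were kept in 7 and 8 of 15 alternatives for the cyp-35C1 sets, 8 of 15 for cyp-13A2 and 8 of 16 for cyp-14A5. Of the drsh-1 calls, cyp-13A10 kept its own in 4 of 12, cyp-25A1 in 10 of 12, cyp-42A1 in 11 of 12, and cyp-25A2 and cyp-33C8 in 12 of 13. The strain block already pairs the fed and fasting arrays of a strain, and no pairing by replicate number could be made, since each group had 1 array. With 1 array a group, small differences could not be detected, and some well above the median residual spread also missed the threshold. An example is cyp-34A9 over 4 strains (log2 1.03 ± 0.38, adjusted p = 0.133 in limma).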
